A study of Mus musculus with 8 samples.

Results

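Imprinted genes are expressed mainly from 1 parental copy, in some cases only in certain tissues. Here 37 genes with known parent-of-origin expression in mouse were followed in neuralised embryoid bodies with and without an agonist of the Hedgehog (Hh) pathway. The members were found as all non-control probe sets whose platform annotation names one of these genes alone, which gave 95 probe sets for 35 of the 37 genes, out of 45101 probe sets on the array. H19 and Dio3 had no such probe set and were not analysed here. The groups were 4 samples given 500 nM retinoic acid (RA) alone and 4 samples given 500 nM RA with 1 uM of an Hh agonist (HH-Ag), each after 2 days in suspension. Embryoid bodies are aggregates formed by differentiating embryonic stem cells, and RA steers them to a caudal neural fate. For 7 of the 8 samples the labels give the stem cell line YFP3.1 with constitutively expressed Gli1FLAG, so the controls also carry this form of Gli1, and collection at 3 days. For replicate 7 of the agonist group neither line nor time is given. The series design calls the samples biological replicates without saying how cultures were separated, so p-values refer to the spread seen among these 8. A probe set reports the sum of both alleles, so which parental copy was transcribed was not measured.

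At most imprinted loci a stretch of CpG-rich DNA is methylated in 1 germ line only and keeps the 2 parental copies in different states. Several of the genes act on growth, with paternally expressed ones often promoting it and maternally expressed ones often restraining it, and many are active in the embryonic brain. Nnat (neuronatin) encodes a small membrane proteolipid of embryonic neural tissue and is read from the paternal copy. Plagl1 (Zac1) encodes a zinc finger transcription factor, Mest a protein of the hydrolase fold family, Grb10 an adaptor that restrains insulin and IGF receptors, and Meg3 a long non-coding RNA read from the maternal copy.

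Promoter windows of the 5 genes with a probe set that changed are shown because 1 of 3 short words searched is found in all of them. They are windows of 300 bases from RefSeq on GRCm38.p6 that begin upstream of a transcript start and end 50 bases after it. Where RefSeq gave several windows, the one with the most CpG dinucleotides is shown. Capitals mark TGCCGC or its reverse complement GCGGCA, the core of the motif read by ZFP57, a zinc finger protein that protects methylation at imprinted control regions. The windows lie at chr2:157559828-157560127 (plus strand, Nnat), chr10:13090582-13090881 (plus, Plagl1), chr11:12037371-12037670 (minus, Grb10), chr12:109540746-109541045 (plus, Meg3) and chr6:30737800-30738099 (plus, Mest).
Nnat: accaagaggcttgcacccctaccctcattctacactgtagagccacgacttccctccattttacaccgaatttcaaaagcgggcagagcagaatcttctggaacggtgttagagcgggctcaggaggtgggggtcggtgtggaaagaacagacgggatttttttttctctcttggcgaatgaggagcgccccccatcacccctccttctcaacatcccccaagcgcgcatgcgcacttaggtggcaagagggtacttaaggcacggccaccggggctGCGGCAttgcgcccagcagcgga
Plagl1: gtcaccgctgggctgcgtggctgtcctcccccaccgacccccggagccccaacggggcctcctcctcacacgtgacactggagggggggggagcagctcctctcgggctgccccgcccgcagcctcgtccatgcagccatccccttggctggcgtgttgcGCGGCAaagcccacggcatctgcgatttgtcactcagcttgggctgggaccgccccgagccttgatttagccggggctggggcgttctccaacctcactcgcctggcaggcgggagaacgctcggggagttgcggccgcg
Grb10: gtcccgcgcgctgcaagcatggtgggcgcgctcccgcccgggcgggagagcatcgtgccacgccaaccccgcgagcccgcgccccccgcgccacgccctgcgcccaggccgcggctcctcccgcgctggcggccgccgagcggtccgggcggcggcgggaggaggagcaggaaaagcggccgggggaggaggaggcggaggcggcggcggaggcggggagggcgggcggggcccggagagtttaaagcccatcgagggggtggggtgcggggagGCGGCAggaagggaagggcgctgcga
Meg3: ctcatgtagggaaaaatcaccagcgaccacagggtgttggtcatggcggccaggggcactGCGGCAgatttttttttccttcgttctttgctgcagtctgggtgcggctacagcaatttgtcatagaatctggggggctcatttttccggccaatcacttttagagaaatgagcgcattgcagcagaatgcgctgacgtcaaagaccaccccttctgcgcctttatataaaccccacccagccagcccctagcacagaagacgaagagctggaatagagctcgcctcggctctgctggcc
Mest: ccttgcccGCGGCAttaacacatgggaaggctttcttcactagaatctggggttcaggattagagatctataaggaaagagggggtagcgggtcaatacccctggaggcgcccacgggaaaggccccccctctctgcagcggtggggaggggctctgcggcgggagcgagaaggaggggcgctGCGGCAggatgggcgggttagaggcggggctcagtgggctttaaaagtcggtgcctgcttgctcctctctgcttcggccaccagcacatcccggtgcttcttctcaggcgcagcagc

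The windows held 17 CpG dinucleotides in Nnat, 26 in Plagl1, 45 in Grb10, 13 in Meg3 and 17 in Mest, against a median of 7 over 32851 windows of all genes. Windows were found for 31 of the 37 members. The most CpG-rich window of each had a median of 18, and all 50 of their windows a median of 15. The word TGCCGC, searched on both strands, was present in 11 of these 31 windows (35.5%), in 13 of all 50 windows of members, in 11.6% of all windows and in 24.1% of the windows with at least 13 CpG, a level set after the 5 windows had been seen. The 5 windows shown were among the 11, as were those of Calcr, Commd1, Copg2, Nap1l5, Snrpn and Zim1, of which Nap1l5 was too dim for the test and the others did not pass it. The word TGGGTGG, the core of the motif read by Gli factors, was searched on both strands and was present in the windows of Meg3 and Ube3a. That is 6.45% of the 31, against 9.30% of all windows and 8.74% of those with at least 13 CpG. The Gli word was not found in the windows of Nnat, Plagl1, Grb10 and Mest. The word CCATNTT, part of the YY1 motif, was present on either strand in 6 of the 31 windows (19.4%), including that of Nnat. It was present in 16.1% of all windows and in 13.1% of those with at least 13 CpG. A match of letters is a description and not a binding site.

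Values are the authors' linear intensities, and the 8 arrays were nearly level, with medians of 21.6 to 22.6. Tests were made on log2(intensity + 16), which understates the change of dim genes, leaving out the dimmest 40% by mean, which lay under an intensity of 15.1. Differences were called at a Benjamini-Hochberg adjusted p of 0.05 in limma, over all 27022 tested probe sets. Adjusted p-values below are from that fit unless another fit is named with them. As a check of the labelled neural fate, progenitor markers were measured in both groups, with Sox2 at 340 ± 44.9 and 285 ± 26.9 (mean intensity ± SD, n = 4 in each group) and Nes at 262 ± 26.7 and 268 ± 5.09, while Sox1 was too dim to be tested, at 9.71 ± 5.03 and 18.6 ± 9.82. Pax6 was at 41.3 ± 5.71 and 11.6 ± 3.58, under the filter level with the agonist. Sox2 also marks pluripotent cells, so Sox2 alone does not establish the neural label. Other pluripotency markers were measured in both groups, and the means of Dppa5a and Esrrb lay above those of Sox2. Dppa5a was at 3962 ± 167 and 3944 ± 45.7, and Esrrb at 399 ± 47.5 and 411 ± 64.65. Utf1 was at 365 ± 77.5 and 282 ± 20.25, and Pou5f1 at 141 ± 42.4 and 113 ± 19.2. The dimmest was Fgf4, with means of 34.2 and 37.2. Intensities of different probe sets do not order transcript amounts. Arrays of replicates 1 and 5 were hybridised on an earlier day than the other 6. On the later day fluidics station and treatment cannot be told apart, since the RA arrays used station 1 and the agonist arrays station 2, while both arrays of the earlier day used station 1. First-day differences, from 1 array a group and without a test, are therefore given beside the results.

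Of the 95 member probe sets 66 were bright enough to be tested, and they covered 31 genes. With the agonist 7 rose, 1 fell and 58 did not pass. Thus 12.1% of the tested member probe sets were called, against a background of 1.87% of all tested probe sets (1.14% higher and 0.733% lower). The 8 calls belonged to 5 genes, and 4 of them were of Meg3. Probe sets of 1 gene share its transcripts and are not independent. Taking only each gene's brightest probe set, 3 of 31 genes rose (Nnat, Plagl1 and Grb10) and 1 fell (Mest). That is 12.9% called, against a background of 2.18% of 13675 genes (1.31% higher and 0.87% lower). The members and the background are unlike in brightness. A mean log2 value above 8, where spread within groups was smaller, was reached by 15 of the 66 and by 2456 of the 27022 probe sets. The members were also chosen with earlier results of these data known, so nothing is read from these shares about imprinted genes as a class. The groups did not overlap in 6 of the 31 genes, against 8.02% of all genes. The median log2 fold change of the 66 probe sets was 0.089 and 49 of them lay above 0, against a median of -0.0047 over all tested probe sets. The median of the members lay between 0.055 and 0.11 under all alternatives of normalization, filter and model and without each array.

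Markers of other cells that the aggregates could hold are given first because some moved with the treatment. The background for their counts is 2.18% of all tested genes called, so a count of 0 in a short list says little. By each gene's brightest probe set, 12 of 14 tested neuronal markers rose (Tubb3, Elavl3, Elavl4, Stmn2, Nefm, Nefl, Gap43, Map2, Ncam1, Ina, Isl1 and Neurod4), 0 fell, and Dcx and Mapt did not pass. A dimmer probe set of each rose. That of Dcx went from 46.7 ± 8.67 to 71.4 ± 5.63 (adjusted p = 0.0225) and that of Mapt from 23.7 ± 2.32 to 48.8 ± 5.11 (adjusted p = 0.000919). Their other dimmer probe sets did not pass (adjusted p = 0.0699 and 0.976 for Dcx, 0.960 and 0.274 for Mapt). Among the 12, a dimmer probe set each of Elavl3, Map2 and Ncam1 did not pass either (adjusted p = 0.207, 0.308 and 0.146). The summed intensity of the 14 was 1162 to 1305 on the RA arrays and 3188 to 3396 on the agonist arrays. None of the 14 was listed at 0, but Neurod4, at 6.49 ± 2.13 on the RA arrays, lay under the filter level there and entered the test through the agonist arrays. In these bulk samples more cells of a type and more RNA per cell cannot be told apart, and the part of neurons in the rises of Nnat, Plagl1, Grb10 and Meg3 was not tested. Of 10 tested neural progenitor markers Vim and Fabp7 rose and Pax6 fell (summed intensity 2445 to 2723 against 2715 to 2949). The largest part of that sum was Vim, at 1588.5 ± 87.3 and 1834 ± 59.9. The median log2 fold change of the 10 was 0.020. Markers of endoderm and yolk sac had sums that overlapped between groups (0 of 7 tested called, 265 to 297 against 283 to 322), as had those of mesoderm (0 of 11, 510 to 538 against 489 to 533). Of the 7, Sox17 had groups that did not overlap, at 41.5 ± 4.14 and 31.2 ± 3.73, without passing (adjusted p = 0.269), and Afp was too dim to be tested, at 12.4 ± 4.55 and 12.9 ± 4.46. Of 8 tested trophoblast and simple epithelium markers Krt8 and Krt18 fell (1479 to 1649 against 1202 to 1358). Of 13 pluripotency markers Dppa4 and Klf2 fell (5486 to 6412 against 5543 to 5920). The largest part of that sum was Dppa5a, at 3962 ± 167 and 3944 ± 45.7. The median log2 fold change of the 13 was -0.24, with 10 of them below 0. The part of these cells in the fall of Mest was not tested.

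**Figure D1:**
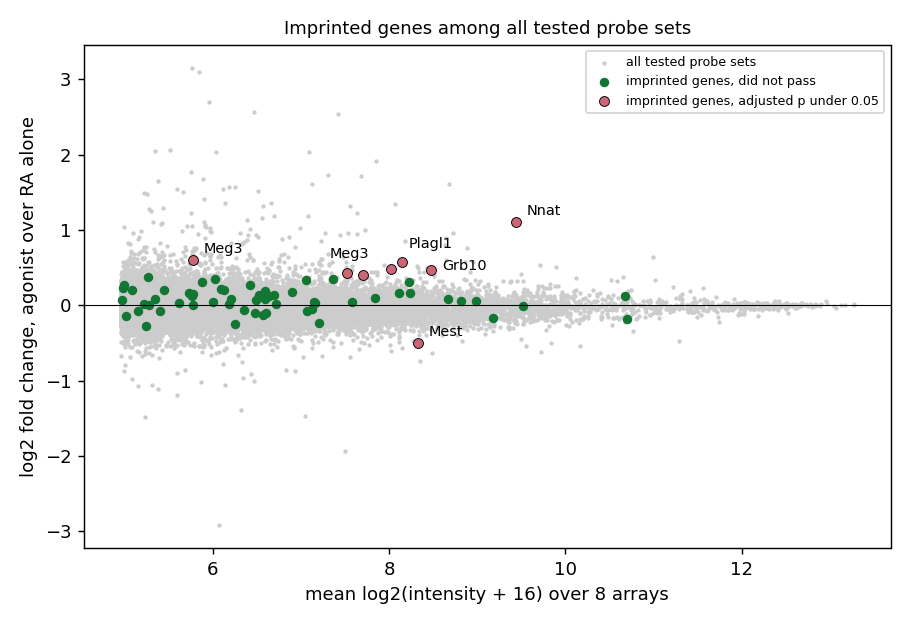
Mean log2(intensity + 16) over the 8 arrays (x axis) against the log2 fold change of agonist over RA alone (y axis) for all 27022 tested probe sets (grey) and the 66 of imprinted genes (green, or red where called). Nnat lies at 1.10 and Mest at -0.51, while most imprinted probe sets lie close to 0.

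Nnat showed the largest change of the 31 genes. Its only probe set (1423506_a_at) read 453, 435, 506 and 437 on the 4 RA arrays and 1044, 1002, 904 and 1059 on the 4 agonist arrays. All agonist arrays lay above all RA arrays, and the lowest of them was well above the highest RA array. The mean went from 458 ± 32.9 to 1002 ± 69.8, or 1.10 on the log2 scale (SE 0.063, 95% interval 0.97 to 1.24, adjusted p = 2.61e-09), which is 2.15-fold. The first-day difference was 1.18. By gain in mean intensity, 544.5, Nnat ranked 2 of the 13675 tested genes, and by log2 fold change it ranked 31. These ranks depend on how well each probe set binds and are a description. The fold change lay between 1.03 and 1.15 on the log2 scale in all 19 other fits, and each of them called it.

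RefSeq places Nnat inside Blcap, a gene transcribed around it that is also partly imprinted in brain. Blcap read 33.1, 32.6, 26.3 and 38.7 with RA and 33.4, 35.3, 39.6 and 35.2 with the agonist, so the groups overlapped. Its log2 fold change was 0.097 (SE 0.11, 95% interval -0.14 to 0.33, adjusted p = 0.796). The interval of Blcap lies wholly below that of Nnat.

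Plagl1, a paternally expressed transcription factor gene that in mouse embryos regulates other imprinted genes, also rose. Its brightest probe set (1426208_x_at) read 217, 238, 199 and 213 with RA and 334, 316, 347 and 318 with the agonist. The groups did not overlap. The log2 fold change was 0.57 (SE 0.070, adjusted p = 7.99e-05), or 1.48-fold, and the first-day difference was 0.59. Names ending in _x_at denote probe sets in which some probes can bind other transcripts. A dimmer Plagl1 probe set without that ending (1438588_at) had 96.4 ± 10.3 against 111 ± 5.61, with a log2 difference of 0.18 (95% interval -0.0098 to 0.37, adjusted p = 0.441), and another was too dim to be tested, at 4.43 ± 3.36 and 4.41 ± 2.71. The probe sets of Plagl1 thus differed in the size of the change.

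Mest, paternally expressed and abundant in embryonic mesoderm and brain, was the one member that fell. Its single probe set read 354, 397, 348 and 369 with RA and 252, 245, 270 and 248 with the agonist. Every agonist array lay below every RA array. The level fell by 0.51 on the log2 scale (SE 0.066, 95% interval -0.64 to -0.37, adjusted p = 0.000153), which is 1.42-fold lower, and the first-day difference was -0.47. Copg2, the neighbouring coatomer subunit gene, read 79.3, 81.8, 77.4 and 98.0 against 62.3, 71.2, 93.0 and 75.9, with wide overlap (log2 fold change -0.13, 95% interval -0.36 to 0.093, adjusted p = 0.685).

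**Figure D2:**
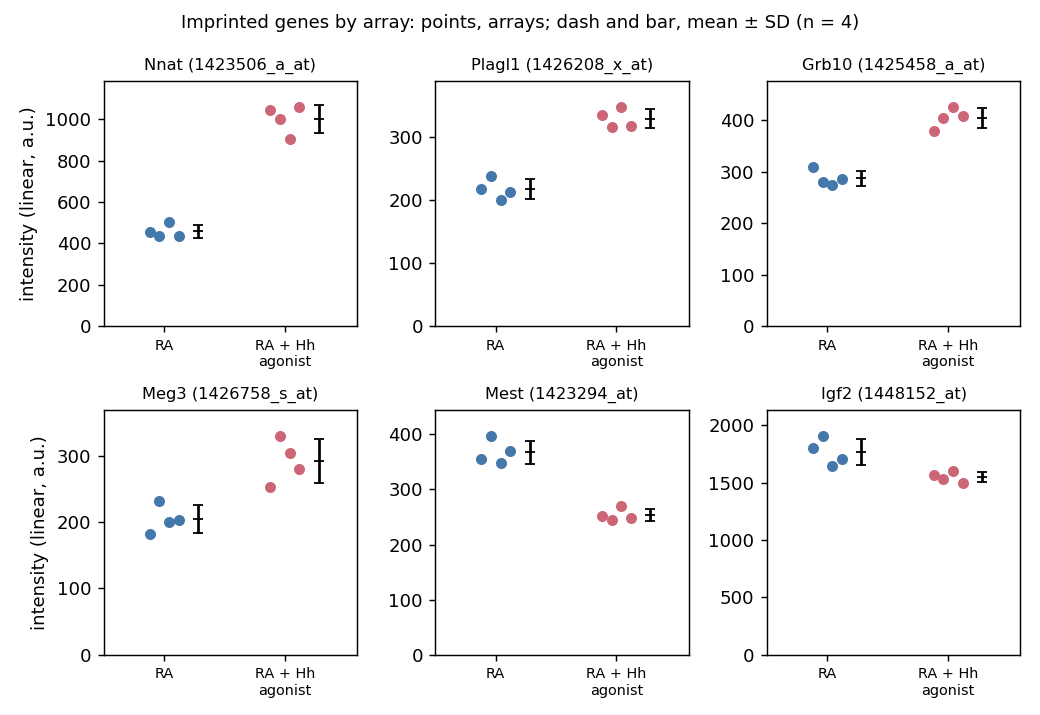
Linear intensity (y axis, arbitrary units) of 6 imprinted genes on each of the 4 RA arrays (blue) and the 4 RA plus Hh agonist arrays (red), with the mean ± SD beside them. Nnat, Plagl1, Grb10 and Meg3 are higher and Mest is lower with the agonist, without overlap. The Meg3 panel shows 1426758_s_at, the brightest of its probe sets that passed, and not the brighter 1452905_at, which did not pass and whose groups overlap. Igf2 lies between 1496 and 1604 with the agonist, below all RA arrays.

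Grb10 is maternally expressed in most tissues of the mouse and paternally expressed in neurons. Its brightest probe set (1425458_a_at) read 308, 281, 275 and 286 with RA and 378, 404, 426 and 409 with the agonist. There was no overlap. The log2 fold change was 0.47 (SE 0.064, 95% interval 0.33 to 0.60, adjusted p = 0.000253), or 1.38-fold. The first-day difference was 0.28, below that interval, and the second day alone gave 0.53. The other Grb10 probe sets pointed the same way without passing, at 0.35 (95% interval 0.13 to 0.56, adjusted p = 0.108) and 0.34 (95% interval 0.022 to 0.65, adjusted p = 0.366), and RA replicate 4 was their highest RA array, at 163 and 150.

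Ddc, which encodes aromatic amino acid decarboxylase and lies next to Grb10, was the 1 rise among 30 neighbours of the 5 changed genes, taken as the 3 nearest tested genes on each side in RefSeq. Ddc read 90.7, 97.9, 89.6 and 103 with RA and 193, 191, 208 and 206 with the agonist. The log2 fold change was 0.95 (SE 0.078, adjusted p = 3.97e-07). A dimmer Ddc probe set had 21.4 ± 4.76 against 33.3 ± 7.58, with overlap, and did not pass (log2 fold change 0.39, adjusted p = 0.212). The neighbours were chosen after the members' values were known, and the other 29 did not pass. With a background of 1.31% of genes higher, 1 of 30 is near the background, and nothing is read from its place beside Grb10.

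Meg3 is the maternally expressed non-coding RNA of the Dlk1-Dio3 domain. Of its 11 probe sets 9 were tested, 4 rose and 5 did not pass. The probe set 1426758_s_at read 182, 232, 201 and 203 with RA and 253, 329, 305 and 279 with the agonist, 0.48 higher on the log2 scale (SE 0.087, adjusted p = 0.00470). The probe set 1452183_a_at read 136, 151, 131 and 154 against 190, 193, 205 and 201, and it changed by 0.43 (SE 0.076, adjusted p = 0.00418). In both the groups were apart, by a wider margin in the second. The third, 1439380_x_at, read 149, 173, 166 and 175 against 210, 249, 216 and 224, again without overlap (log2 fold change 0.41, adjusted p = 0.00747). The first-day differences of these 3 probe sets were 0.44, 0.43 and 0.45. The dimmest of the 4 (1429257_at) read 15.2, 39.8, 32.1 and 30.8 against 48.1, 58.7, 43.8 and 56.9 (adjusted p = 0.0475), and RA replicate 1 was far below the rest. Its first-day difference was 1.04. The log2 fold change of 0.60 was 0.43 without RA replicate 1 (adjusted p = 0.110), and the call was also lost without RA replicates 3 or 4 or agonist replicates 5, 6 or 8.

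The brightest Meg3 probe set (1452905_at) had 256 ± 29.4 against 319 ± 26.6, a log2 fold change of 0.30 that did not pass (95% interval 0.13 to 0.48, adjusted p = 0.0755). Its RA replicate 2, at 296, lay above agonist replicate 5, at 286, so the groups overlapped. Fitted as the mean of its tested probe sets Meg3 had 0.29 and did not pass (adjusted p = 0.0665). The remaining 4 tested probe sets lay between -0.11 and 0.30. Which Meg3 isoforms each probe set reads was not analysed here.

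**Figure D3:**
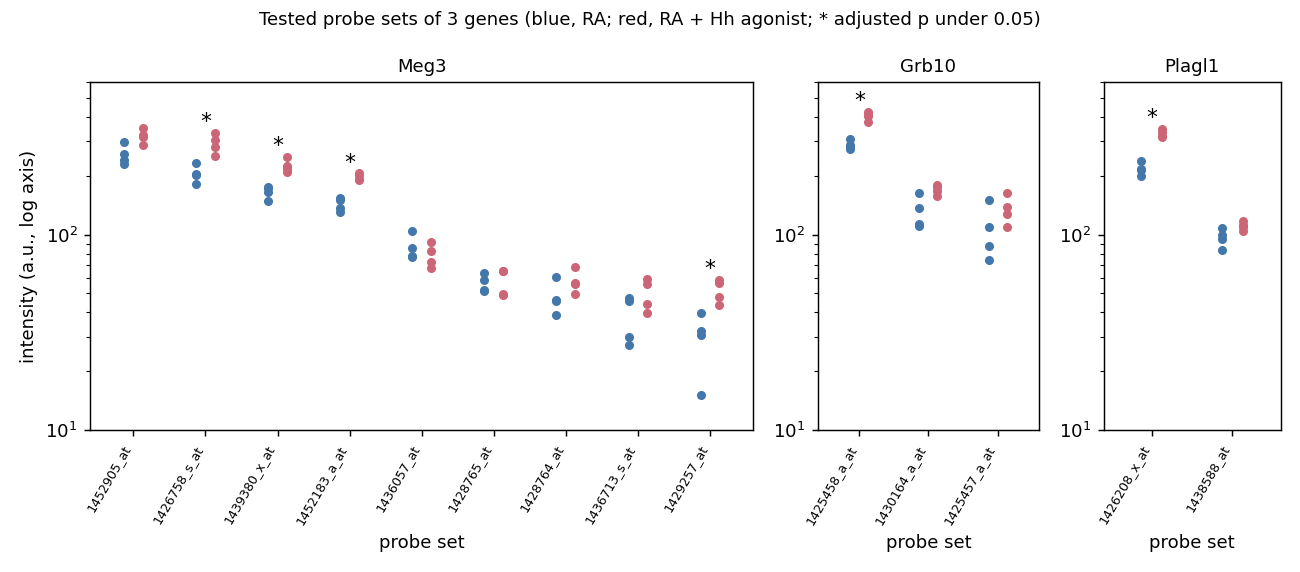
Intensity (y axis, log scale, arbitrary units) of each tested probe set of Meg3, Grb10 and Plagl1, with 4 RA arrays in blue and 4 RA plus Hh agonist arrays in red, and a star where the adjusted p was under 0.05. The change differs between the probe sets of a gene, from -0.11 to 0.60 on the log2 scale for Meg3.

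The paternally expressed partner of Meg3 is Dlk1, which encodes a membrane protein related to Notch ligands. Dlk1 read 33.6, 38.7, 38.9 and 34.2 with RA and 37.8, 39.1, 40.7 and 50.5 with the agonist (log2 fold change 0.15, 95% interval -0.081 to 0.37, adjusted p = 0.655). The non-coding RNAs Rian and Mirg, which follow Meg3 in the same domain, had log2 fold changes of 0.22 (adjusted p = 0.516) and 0.17 (adjusted p = 0.478). Neither Dlk1, Rian nor Mirg passed, and their difference from Meg3 was not tested.

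Igf2, the paternally expressed fetal growth factor, lay just outside the threshold. It read 1801, 1904, 1645 and 1709 with RA and 1564, 1530, 1604 and 1496 with the agonist. The groups did not overlap, though the gap between RA replicate 3 and agonist replicate 7 was narrow. The log2 fold change was -0.18 (SE 0.047, 95% interval -0.28 to -0.087, adjusted p = 0.0512), and the first-day difference was -0.20. It was called lower in 6 of the 19 other fits, including those without RA replicate 3 (adjusted p = 0.0190) and without agonist replicate 7 (adjusted p = 0.0469). In the rest it did not pass, with adjusted p up to 0.229 on the second day alone and 0.416 without an intensity trend. A second Igf2 probe set was too dim to be tested, at 17.0 ± 7.50 and 13.04 ± 6.22.

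Igf2r, the maternally expressed receptor that clears IGF2, had probe sets pointing opposite ways, at 0.096 (95% interval -0.048 to 0.24, adjusted p = 0.638) and -0.24 (95% interval -0.44 to -0.031, adjusted p = 0.317). Of 13 tested partners of the IGF axis, among them Igf1r, Insr and the Igf2 mRNA-binding proteins, 1 rose and 0 fell by the brightest probe set (7.69%, against 2.18% of all genes called). The 1 that rose was Hmga2, a chromatin protein gene upstream of Igf2bp2, at 806 ± 54.4 and 986 ± 51.0 (log2 fold change 0.29, adjusted p = 0.00932). A dimmer probe set of Igfbp5, an IGF-binding protein gene, also rose, from 35.9 ± 3.14 to 57.6 ± 10.9 (adjusted p = 0.0373), while the brightest of Igfbp5 had 52.0 ± 5.48 against 55.8 ± 3.12 (adjusted p = 0.804).

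The maternally expressed growth inhibitors of the Kcnq1ot1 domain did not pass. Cdkn1c, which encodes the cell cycle inhibitor p57Kip2, read 435, 411, 475 and 390 with RA and 451, 419, 480 and 422 with the agonist. The arrays of the groups interleaved, and the log2 fold change was 0.051 (95% interval -0.094 to 0.20, adjusted p = 0.830). Phlda2, a placental growth restrainer, read 376, 390, 375 and 374 against 400, 399, 418 and 398. Those groups did not overlap but differed by 0.089 on the log2 scale (95% interval -0.030 to 0.21, adjusted p = 0.581). In all, 10 of the 66 member probe sets had groups that did not overlap, against a background of 7.06% of all tested probe sets. Kcnq1ot1, the non-coding RNA that silences the domain, read 160, 194, 165 and 177 against 178, 170, 186 and 181 by its brightest probe set, and the log2 fold changes of its 4 tested probe sets ranged from -0.081 to 0.088. Ascl2, a trophoblast transcription factor gene, read 69.8, 68.3, 64.9 and 66.0 against 62.7, 78.5, 64.2 and 52.5 (log2 fold change -0.057, adjusted p = 0.881). In both genes the groups overlapped. The transporter gene Slc22a18 read 26.2, 11.2, 45.5 and 27.3 against 1.52, 26.3, 23.9 and 32.3, an uneven signal near the filter level, and its probe sets pointed opposite ways, at -0.27 and 0.22.

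The Prader-Willi and Angelman domain likewise held 12 tested probe sets and none passed (background 1.87%). Ndn, the gene of the neuronal growth suppressor necdin, had 484 ± 28.6 against 507 ± 76.2 by its brightest probe set (log2 fold change 0.053, 95% interval -0.12 to 0.23, adjusted p = 0.863), and its 7 tested probe sets ranged from -0.079 to 0.20. Magel2, a relative of Ndn, read 92.3, 67.5, 34.7 and 66.5 with RA and 106, 51.3, 82.3 and 83.3 with the agonist, so the spread within groups was wide (log2 fold change 0.27, 95% interval -0.13 to 0.67, adjusted p = 0.632). The interval of Magel2 leaves room for a change as large as that of Plagl1. Snrpn, a splicing protein gene, had 0.18 (adjusted p = 0.530). The brightest probe sets of the ubiquitin ligase gene Ube3a had 0.045 and -0.045, and a dim one had 0.38 (adjusted p = 0.292).

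Of the other paternally expressed genes, Peg3, a zinc finger gene, had 271 ± 28.2 against 305 ± 18.3 (log2 fold change 0.17, 95% interval 0.0052 to 0.33, adjusted p = 0.388), and its 3 tested probe sets all lay above 0, from 0.13 to 0.20. Sgce, the epsilon-sarcoglycan gene, had 247 ± 17.1 against 278 ± 17.3 (0.16, adjusted p = 0.368). Peg10, which derives from a retrotransposon and shares a promoter region with Sgce, was dim, at 21.4 ± 5.397 and 21.7 ± 4.04. Slc38a4, an amino acid transporter gene, had 600 ± 47.2 against 530 ± 21.3 (log2 fold change -0.17, 95% interval -0.30 to -0.041, adjusted p = 0.234), and its second probe set pointed the same way at -0.25. Impact, Inpp5f and Rasgrf1 had brightest probe sets at 0.021, 0.20 and 0.064 (adjusted p = 0.965, 0.623 and 0.840).

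Among the maternally expressed genes, Commd1 had 719 ± 25.9 against 718 ± 34.2 (95% interval of the log2 difference -0.11 to 0.11). Calcr, Dcn, Ppp1r9a and Zim1 had log2 fold changes of 0.16, 0.13, 0.079 and 0.0046 by their brightest probe sets. Gnas, whose locus gives several products of either parental copy, had 1556 ± 118 against 1696 ± 75.6 (0.13, 95% interval 0.015 to 0.24, adjusted p = 0.326). By mean log2 value over the 8 arrays, Igf2, Gnas and Commd1 gave the brightest member probe sets, though Nnat was above Commd1 on the agonist arrays, and intensities do not order transcript amounts. By each gene's brightest probe set and its usual parental copy, 2 of 16 tested paternally expressed genes rose and 1 fell, and 1 of 14 maternally expressed genes rose and 0 fell, against the background of 2.18% of genes called. By probe sets the order was the other way, with 3 of 32 paternal (9.38%) and 5 of 32 maternal (15.6%) called, 4 of the 5 of Meg3, and the difference between the copies was not tested. The 1 maternal gene was Grb10.

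**Figure D4:**
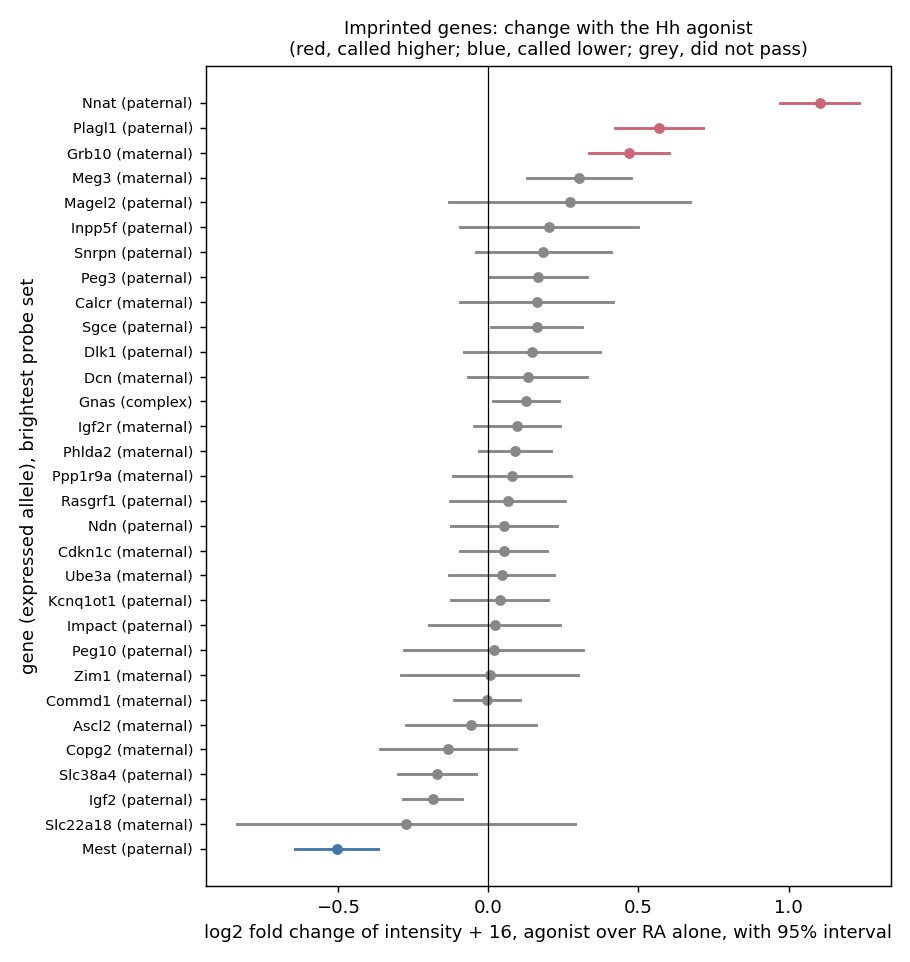
Log2 fold change with its 95% interval (x axis) for the brightest probe set of each of the 31 tested imprinted genes, ordered by size and labelled with the parental copy usually expressed. Nnat, Plagl1 and Grb10 (red) and Mest (blue) were called, and the other 27 (grey) did not pass.

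Asb4, Gatm, Mkrn3 and Nap1l5 were too dim for the test, and so were other probe sets of tested members, 29 in all. Asb4, a maternally expressed ankyrin repeat gene, read 6.89, 7.08, 9.81 and 11.6 with RA and 14.0, 16.8, 18.02 and 13.2 with the agonist by the brighter of its probe sets. These groups did not overlap, but when fitted without the filter the gene did not pass (adjusted p = 0.395). The lowest adjusted p of the 29 without the filter was 0.395.

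For 25 of the 27 genes that did not pass by their brightest probe set, the 95% interval of the log2 difference lay within 0.5 of 0. Magel2 and Slc22a18 were the exceptions. Within groups the members varied about as much as other probe sets of like intensity, with a median residual SD of 0.089 on the log2 scale for the 15 members with a mean above 8, against 0.088 for all 2456 such probe sets, and of 0.15 against 0.13 for means of 6 to 8.

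Of 29 other imprinted genes tested, 1 rose (Ddc, described above) and 1 fell, against the background of 2.18% of genes called, and their median log2 fold change was 0.053. The 1 that fell was Jade1, a gene of a histone acetyltransferase complex, from 207 ± 31.0 to 155 ± 7.77 (adjusted p = 0.0494), with RA replicate 3, at 162, inside the range of the agonist arrays. Its dimmer probe sets pointed the same way without passing, at -0.35 without overlap (adjusted p = 0.127) and -0.16 with overlap (adjusted p = 0.658). None of 24 tested genes for proteins that set or keep imprints passed, among them Dnmt1, Dnmt3a, Ctcf and Trim28, the partner of ZFP57, and their median log2 fold change was -0.12. Dnmt3b, a de novo methyltransferase gene, had 80.0 ± 11.8 against 55.4 ± 7.69 without overlap between groups, and its log2 fold change of -0.42 did not pass (adjusted p = 0.0624). A dimmer Dnmt3b probe set had 61.0 ± 7.36 against 57.6 ± 11.1, with overlap (log2 fold change -0.074, adjusted p = 0.861). Zfp57 itself was too dim to be tested, at 14.3 ± 4.45 and 15.9 ± 8.02.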

How the data were processed

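RNA isolated with Trizol, per the labels' protocols, was hybridised to 8 Affymetrix Mouse430_2 arrays. In the deposited table each value is an intensity on a linear scale, as processed by the authors. Their summary of probes, background correction and normalization are not given in the sources used here, and their normalization was kept. Fluidics station and hybridisation day are those of the deposited instrument records, which give other settings and no measured value. Groups were read from the sample titles.

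After removal of 64 control probe sets, 16 was added to each value before the log2 step. Genes were named only by probe sets annotated with 1 gene (34945 of 45101), and 34741 of these matched RefSeq by gene identifier. A further 8 probe sets that name a member with another gene were not used. Groups were compared with limma 3.58.1 in R 4.3.3 (lmFit, eBayes with intensity trend, two-sided), with Benjamini-Hochberg adjustment over 27022 probe sets. Tested on simulated data in which 200 of the 27022 differed, this fit recovered 37% of changes of 0.5 and 80% of changes of 1 on the log2 scale, with 3.31% of calls unchanged. The number of arrays limits the precision. Alternatives changed the normalization (quantile, median centring), the added value (1 or 64), the filter (none, 60th percentile), the variance model, array weights, hybridisation day, the averaging of probe sets, or left out 1 array at a time. Tables were made with Python 3.11.15 and pandas 2.3.3.

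The members and lists were chosen with earlier results of these data known. Every member is accounted for, and array values are given for Nnat, for those that passed or whose groups did not overlap, and for genes of their domains. From other lists the genes that passed are named.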

Additional observations from a re-analysis of the deposited data

Results flagged for a closer look

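A single array stood apart from the other 3 of its group in 6 of the 132 groups of 4 examined over the 66 tested member probe sets, where chance flags about 1 in 20. Of the Ndn probe set 1455792_x_at, RA replicate 2 read 110.1 against 129 to 131. Of Peg3 (1433924_at), agonist replicate 7 read 93.1 against 75.04 to 77.83. Of Phlda2, RA replicate 2 read 389.6 against 374 to 376, and agonist replicate 7 read 418.4 against 398 to 400. Of Ppp1r9a (1440285_at), RA replicate 1 read 22.1 against 48.2 to 52.5. Of Ube3a (1431224_at), agonist replicate 8 read 131.2 against 117 to 118. None of these probe sets passed the test.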

How the results depend on the processing

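No paired analysis was possible because the replicate numbers of the groups, 1 to 4 and 5 to 8, share none. The calls of Nnat, Plagl1, Grb10 and Mest held in all 19 other fits, and no called member probe set, nor Igf2, changed sign in any of them. The call nearest the threshold was that of Grb10 with its tested probe sets averaged (adjusted p = 0.0481). The 7 higher member probe sets were 4 without an intensity trend, 3 genes when all tested probe sets of a gene were averaged, and 5 to 8 when single arrays were left out. The 1 lower was 2, with Igf2 added, under quantile normalization, median centring, a filter at the 60th percentile or array weights, and 1 to 2 when single arrays were left out (2 without RA replicate 3 or agonist replicate 7). Over all probe sets the 506 calls were 264 without an intensity trend, 266 on the second hybridisation day alone, 274 of 13675 genes with that average, and 298 to 615 when single arrays were left out, with 324 without RA replicate 2 and 298 without agonist replicate 6. Of the Meg3 probe sets 1426758_s_at did not pass without an intensity trend (adjusted p = 0.0636), and 1439380_x_at did not pass there (0.0603), on the second day alone (0.0507) or without agonist replicate 6 (0.0517). The dimmest that rose, 1429257_at, did not pass under median centring (0.0537), with 1 added (0.0718), without a filter (0.0586), without an intensity trend (0.154) or on the second day alone (0.153). The cause was not tested.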
